A study of Mus musculus with 12 samples.

Results

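The 10 apolipoprotein genes Apoa1, Apoa2, Apoa4, Apoa5, Apob, Apoc1, Apoc2, Apoc3, Apoc4 and Apoe were taken by gene name from a liver RNA-seq table of 17710 genes, and all 10 were found and passed the filter on low counts in every comparison. The livers came from 12 male wild-type mice, 3 in each of 4 groups. These were ICR mice on the high-fat diet CDAHFD, in which choline is lacking and amino acids stand in for protein, ICR mice on normal diet (ND), C57BL/6J mice on CDAHFD and C57BL/6J mice on ND, all fed for 10 weeks after purchase at 8 weeks of age. C57BL/6J is an inbred strain and ICR is an outbred stock, so ICR mice also differ genetically from one another. The CDAHFD supplies no added choline and little methionine together with a high fat load, and is used to induce steatohepatitis with fibrosis.

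Apolipoproteins are the protein part of the particles that carry lipid in blood. Hepatocytes assemble very low density lipoprotein (VLDL) on apolipoprotein B, and export of these particles depends on phosphatidylcholine, which is made from choline or by methylation. Apolipoproteins A-I and A-II form the frame of high density lipoprotein (HDL), the C group regulates lipoprotein lipase and particle uptake, and apolipoprotein E is a ligand for hepatic uptake. Only mRNA was measured here, in whole liver, where fewer cells of a type and less RNA per cell cannot be told apart.

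Counts assigned to genes totalled 24612309 to 32214782 per library in CDAHFD livers and 22245245 to 24205176 in ND livers, without overlap. The 10 genes together took 2.95 to 3.30% of these counts in ICR CDAHFD livers and 2.71 to 3.99% in ICR ND livers. They took 3.06 to 3.39% in C57BL/6J CDAHFD livers and 3.54 to 4.58% in C57BL/6J ND livers. Albumin, the defining hepatocyte gene, was high in all groups, at 56103 to 68176 CPM (counts relative to library size, scaled by the TMM method) in ICR CDAHFD, 64877 to 97578 in ICR ND, 34612 to 63274 in C57BL/6J CDAHFD and 78296 to 93510 in C57BL/6J ND. Of 20 hepatocyte marker genes, 14 fell and 0 rose on CDAHFD in ICR, and 15 fell and 0 rose in C57BL/6J. Their summed level was 93129 to 109738 CPM in ICR CDAHFD and 178509 to 205201 CPM in ICR ND, and 60921 to 105287 CPM in C57BL/6J CDAHFD and 148396 to 197561 CPM in C57BL/6J ND. Hepatic stellate cell and fibroblast markers rose at the same time, 14 of 15 in ICR and 15 of 15 in C57BL/6J. The part of this shift between cell types in the changes below was not tested, except that each change was also computed relative to the hepatocyte markers.

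By FPKM, a value per transcript length as deposited, 4 of the genes stood far above the other 6 in every group. Apoe averaged 5349 ± 135 FPKM in ICR CDAHFD livers, Apoa1 4829 ± 505, Apoa2 4167 ± 627 and Apoc1 2340 ± 336 (SD, n = 3). The next level in that group was Apob at 558 ± 22.1 FPKM. In C57BL/6J ND livers the order of the same 4 was Apoa2 (10961 ± 2854 FPKM), Apoc1 (7781 ± 2307 FPKM), Apoa1 (7247 ± 782 FPKM) and Apoe (6873 ± 970 FPKM), and each overlapped the next between mice. Apoa4 was the lowest of the 10 on ND, at 146 ± 48.8 FPKM in ICR and 72.1 ± 20.3 FPKM in C57BL/6J (SD, n = 3 each). On CDAHFD Apoc2 was the lowest by FPKM, at 297 ± 123 FPKM in ICR and 236 ± 18.3 FPKM in C57BL/6J. The lengths that the FPKM values imply differ from those of the principal transcripts in GENCODE, at 1046 against 526 bases for Apoc3, 375 against 538 bases for Apoc4, 1265 against 1815 bases for Apoa4, 2042 against 1408 bases for Apoe, 949 against 727 bases for Apoc2 and 1274 against 1035 bases for Apoa1. With CPM per kilobase of the GENCODE transcript, chosen after the data were seen, the same 4 genes stayed on top in every group and Apoa4 stayed lowest on ND, but 17 of the 40 places changed. On CDAHFD the lowest was then Apoc4 in ICR (211 ± 15.95 CPM per kilobase) and Apoa4 in C57BL/6J (197 ± 51.5 CPM per kilobase), not Apoc2 (321 ± 118 and 240 ± 12.3 CPM per kilobase), and in C57BL/6J ND Apoe stood above Apoa1 and Apoc1, so the order depends on the gene model.

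**Figure D1:**
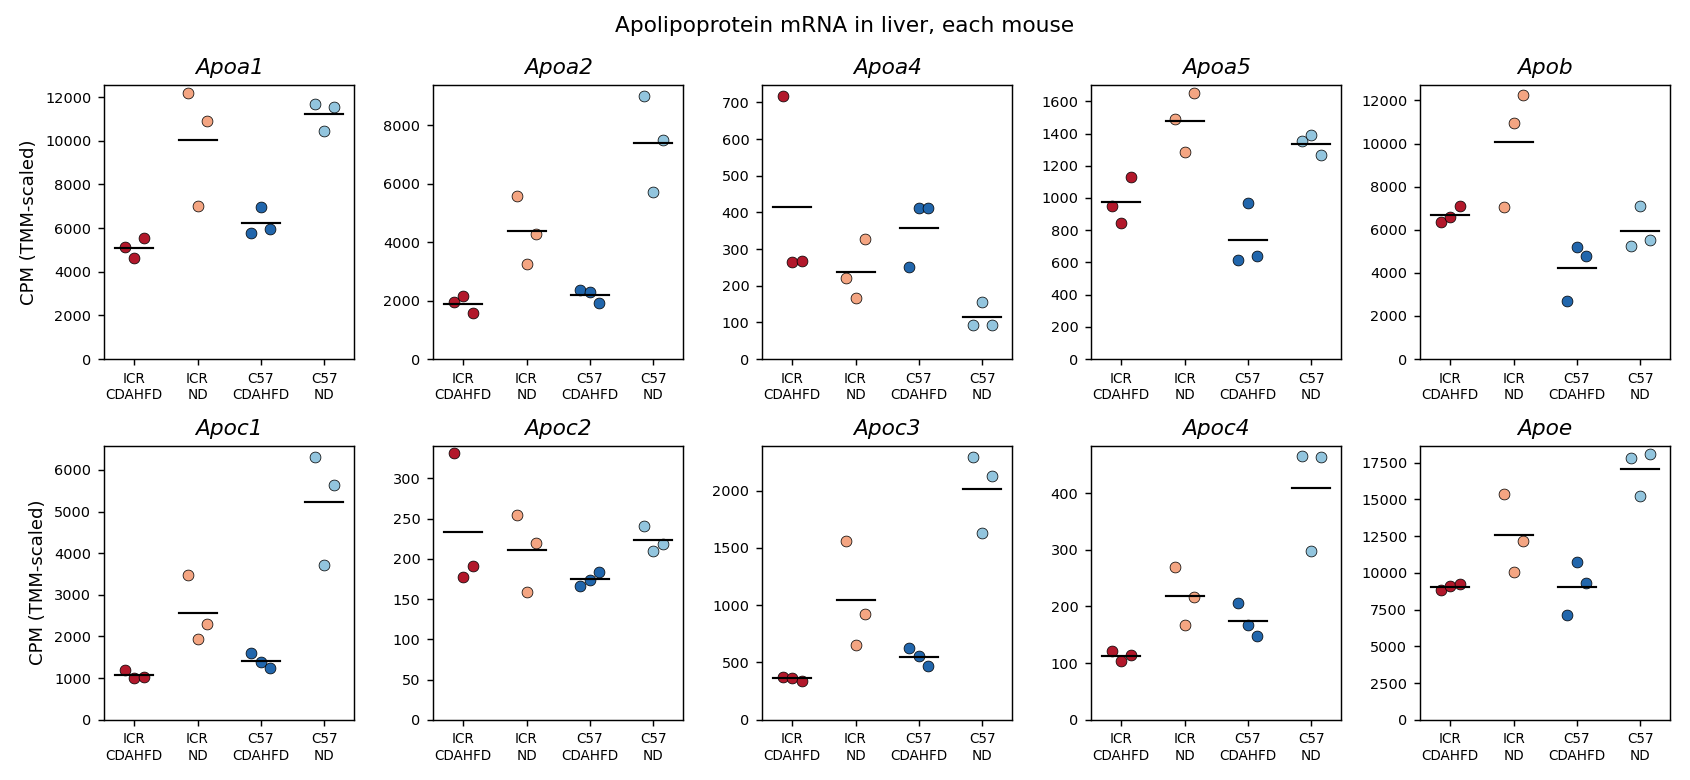
Level of each apolipoprotein mRNA in each liver, in TMM-scaled CPM on a linear axis from 0. Each point is 1 mouse, each bar is the mean of 3 mice, and the groups run from left to right as ICR CDAHFD, ICR ND, C57BL/6J CDAHFD and C57BL/6J ND. Apoc1, Apoc3 and Apoc4 are lower in CDAHFD livers than in ND livers of both strains without overlap, whereas Apoa4 is higher in CDAHFD livers of C57BL/6J without overlap.

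The first comparison asked how the diet changed these mRNAs within each strain. In ICR, 6 of the 10 genes fell on CDAHFD and 0 rose (Apoa1, Apoa2, Apoa5, Apoc1, Apoc3 and Apoc4), by edgeR's quasi-likelihood test with Benjamini-Hochberg adjustment over all 13319 genes tested. At an unadjusted p under 0.05 and by DESeq2 none of the 10 rose either, while 3076 of all genes rose by DESeq2. Of all genes tested in ICR, 16.5% fell and 20.1% rose by edgeR, 36.7% in all. In C57BL/6J, 7 of the 10 fell and 1 rose, the same 6 together with Apoe lower and Apoa4 higher, against 21.2% lower and 26% higher, 47.2% in all, of 13402 genes tested. The median log2 fold change of the 10 was -0.77 in ICR and -0.88 in C57BL/6J, while that of all genes tested was -0.01 in ICR and 0.00 in C57BL/6J.

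By the rule of p under 0.05 with a fold of at least 2, 3 of the 10 fell and 0 rose in ICR (25.5% of all genes passed in either direction), and 4 fell and 1 rose in C57BL/6J (28.7%). These counts depended on how the libraries were scaled. With library size alone, the median gene moved up by 0.61 in ICR and 0.65 in C57BL/6J on the log2 scale, and 1 of the 10 fell and 1 rose in ICR, while 3 fell and 1 rose in C57BL/6J. Scaled to the hepatocyte markers, the median gene moved up by 0.94 and 1.08, and 0 of the 10 fell and 2 rose in ICR (Apoa4 and Apoc2), while 3 fell and 2 rose in C57BL/6J (Apoa2, Apoc1 and Apoc3 lower, Apoa4 and Apoc2 higher). Of 13319 genes tested in ICR, 6994 rose and 614 fell with library size, and 9525 rose and 341 fell with hepatocyte scaling. Of 13402 in C57BL/6J, 7568 rose and 717 fell with library size, and 9236 rose and 281 fell with hepatocyte scaling. The values below are relative to the median gene. What did not depend on scaling was the spread among the 10, with Apoa4 and Apoc2 at the top and Apoc3, Apoc1 and Apoa2 at the bottom in both strains. The bottom 3 have principal transcripts of 526, 532 and 518 bases, but Apoc4 (538 bases) and Apoc2 (727 bases) are also short. Over all genes of up to 800 bases the median log2 fold change was -0.26 in ICR and -0.40 in C57BL/6J. The part of length in this order was not tested beyond the correction given below.

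**Figure D2:**
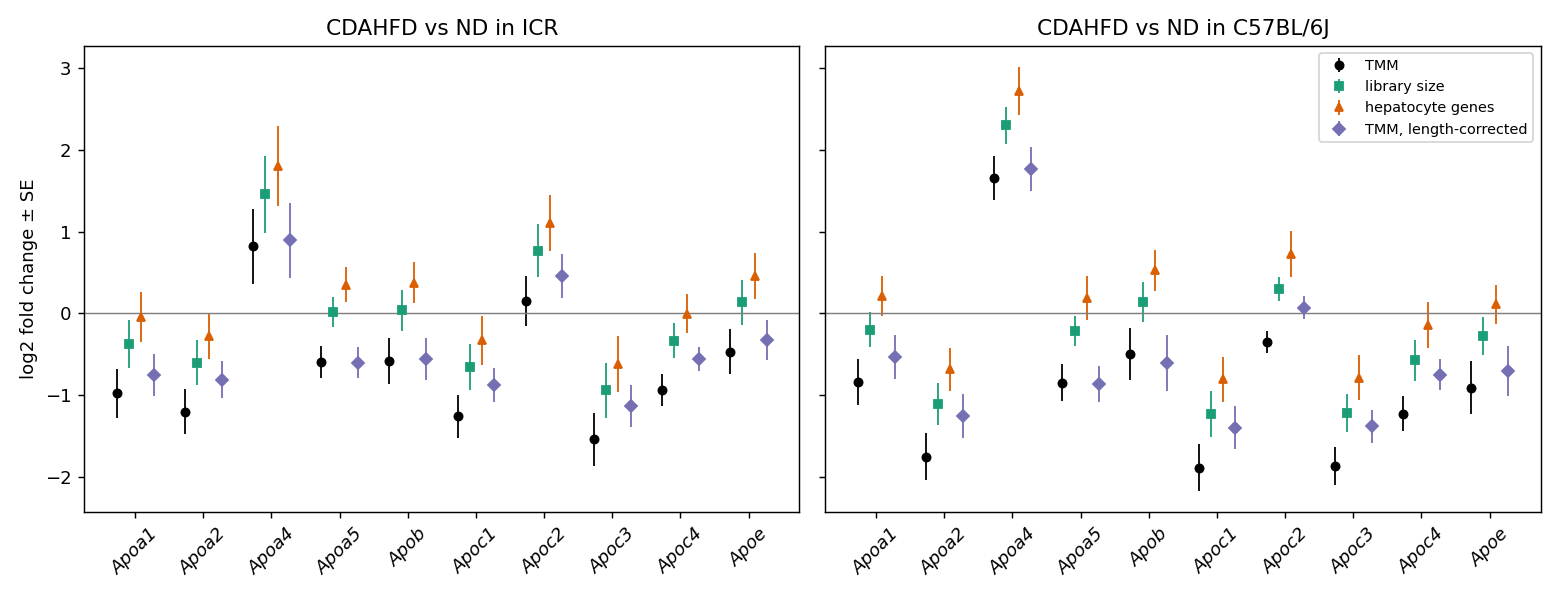
Log2 fold change on CDAHFD against ND for each gene, with its standard error, in ICR on the left and C57BL/6J on the right. Black points are TMM scaling, green squares library size, orange triangles scaling to 20 hepatocyte marker genes and violet diamonds TMM with a correction for transcript length. Scaling moves all 10 genes together, by 0.61 to 1.08, and Apoa4 stays above 0 and Apoc3 below 0 in both strains under all 4.

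Among the genes of the C group, Apoc3, an inhibitor of lipoprotein lipase and of particle uptake, showed the lowest fold change in ICR. Its level was 371, 369 and 342 CPM in ICR CDAHFD livers, against 1556, 652 and 925 CPM in ICR ND livers. In C57BL/6J it was 623, 559 and 472 CPM in CDAHFD livers, against 2294, 1629 and 2127 CPM in ND livers. The groups did not overlap in either strain, and the ND livers of ICR were spread widely, with replicate 1 highest. The log2 fold change was -1.54 ± 0.32 (SE, edgeR adjusted p = 0.0107) in ICR and -1.87 ± 0.23 (edgeR adjusted p = 0.000224) in C57BL/6J, or 2.90-fold and 3.65-fold lower. The call held when each mouse was left out in turn, in 6 of 6 fits of each strain. In ICR Apoc3 did not pass when scaled to the hepatocyte markers (-0.62, edgeR adjusted p = 0.138), while the C57BL/6J call held.

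Apoc1, which inhibits lipoprotein lipase and cholesteryl ester transfer protein (a protein that mice lack), followed the same course. It was at 1189, 1009 and 1020 CPM in ICR CDAHFD livers and at 3469, 1952 and 2300 CPM in ICR ND livers. Apoc1 was at 1614, 1382 and 1235 CPM in C57BL/6J CDAHFD livers and at 6317, 3711 and 5647 CPM in C57BL/6J ND livers. Apoc1 fell by 1.26 ± 0.27 on the log2 scale in ICR (edgeR adjusted p = 0.0109) and by 1.89 ± 0.29 in C57BL/6J (edgeR adjusted p = 0.000751), with no overlap between the diets. The C57BL/6J call held in 6 of 6 fits with a mouse left out and the ICR call in 5 of 6 (not without ICR CDAHFD replicate 2, edgeR adjusted p = 0.0514). In ICR Apoc1 also did not pass with library size alone (-0.66, edgeR adjusted p = 0.0812) or scaled to the hepatocyte markers (-0.33, edgeR adjusted p = 0.332). The C57BL/6J call held under both.

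Apoc4, the least studied gene of this group, was at 121, 104 and 115 CPM in ICR CDAHFD livers and at 269, 167 and 216 CPM in ICR ND livers. Apoc4 was at 206, 168 and 148 CPM in C57BL/6J CDAHFD livers and at 465, 297 and 463 CPM in C57BL/6J ND livers. It fell by 0.94 ± 0.20 in ICR (edgeR adjusted p = 0.0111) and by 1.23 ± 0.22 in C57BL/6J (edgeR adjusted p = 0.00161). Both calls held in 6 of 6 fits with a mouse left out. Scaled to the hepatocyte markers the values were -0.003 in ICR (edgeR adjusted p = 0.991) and -0.14 in C57BL/6J (edgeR adjusted p = 0.648), which did not pass.

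Apoc2, the obligate activator of lipoprotein lipase, did not pass the test in either strain. It was at 332, 177 and 191 CPM in ICR CDAHFD livers and at 255, 158 and 220 CPM in ICR ND livers, which overlapped. In C57BL/6J it was at 166, 173 and 184 CPM in CDAHFD livers and at 241, 210 and 218 CPM in ND livers, which did not. The log2 fold change was 0.15 ± 0.30 in ICR (edgeR adjusted p = 0.723) and -0.35 ± 0.13 in C57BL/6J (edgeR adjusted p = 0.0570), where DESeq2 called it lower (adjusted p = 0.0103). Without the high library, ICR CDAHFD replicate 1, the ICR value was -0.21, and in C57BL/6J the sign was positive under library size, hepatocyte scaling and length correction.

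Apoc2 and Apoc4 are neighbours on chromosome 7, in a run of 4 genes (Apoe, Apoc1, Apoc4 and Apoc2) that spans 27610 bases at chr7:19671579-19699188 of GRCm38, all on the minus strand. A readthrough gene, Gm44805, overlaps both, and 1 of its transcripts is identical to Apoc2 over 99.2% of the Apoc2 transcript. Reads of these genes may therefore have been split or left uncounted, and their levels are uncertain to that extent. Within a library the ratio of the 2 counts is free of scaling, but not of the trend with transcript length described below. The principal transcript is of 538 bases for Apoc4 and 727 bases for Apoc2, and the part of length in the ratio was not tested. There were 274, 170 and 166 Apoc2 counts per 100 Apoc4 counts in ICR CDAHFD livers, against 94.6, 94.6 and 102 in ICR ND livers. In C57BL/6J there were 80.8, 103 and 124 in CDAHFD livers, against 51.8, 70.6 and 47.1 in ND livers. The ratio was 2.10-fold higher on CDAHFD in ICR and 1.82-fold higher in C57BL/6J without overlap between the diets (two-sided exact permutation p = 0.1 in each, the smallest that 3 against 3 mice allow, adjusted p = 0.125 over 10 such tests of 5 ratios that were chosen after the values were seen).

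The sequences before the starts of these neighbours are shown because the genes lie side by side and moved apart. They are from RefSeq (GRCm38.p6), 5′ to 3′ on the strand of the gene, and end at the base before the GENCODE gene. The Apoc2 window is chr7:19677942-19678082 and stops short of the Apoc4 gene, and the Apoc4 window is chr7:19681480-19681710. Capitals mark AGGTCA, a nuclear receptor half-site, and CCAAT.
Apoc2: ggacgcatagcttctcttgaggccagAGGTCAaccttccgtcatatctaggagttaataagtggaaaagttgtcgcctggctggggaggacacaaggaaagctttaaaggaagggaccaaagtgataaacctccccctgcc
Apoc4: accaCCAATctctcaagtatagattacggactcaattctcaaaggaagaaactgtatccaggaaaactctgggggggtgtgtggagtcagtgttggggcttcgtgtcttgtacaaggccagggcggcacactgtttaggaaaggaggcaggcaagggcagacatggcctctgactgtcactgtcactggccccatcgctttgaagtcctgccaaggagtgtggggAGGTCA
AGGTCA occurred on either strand in 16.3% of 32851 promoter windows of 300 bases, and in those of Apoa2, Apoc2 and Apoc4 among the 8 members with a window. CCAAT occurred in 37.4% of all windows and in those of Apoa2 and Apoc4. The motifs CAAAGGTCA and CAAAGTCCA, 2 forms of the HNF4 site, were in 0.478% and 0.475% of all windows and in none of the members'. Only exact matches were counted, and other forms of the site were not searched. TATAAA was in 13.6% of all windows and in those of Apoa2, Apoa5, Apob and Apoe.

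The A group also divided. Apoa1, the main protein of HDL, was at 5129, 4624 and 5543 CPM in ICR CDAHFD livers and at 12185, 7003 and 10918 CPM in ICR ND livers. Apoa1 was at 5791, 6986 and 5975 CPM in C57BL/6J CDAHFD livers and at 11701, 10451 and 11545 CPM in C57BL/6J ND livers. The diets did not overlap in either strain. Apoa1 fell by 0.98 ± 0.30 in ICR (edgeR adjusted p = 0.0387) and by 0.84 ± 0.28 in C57BL/6J (edgeR adjusted p = 0.0327), although scaled to the hepatocyte markers its values were -0.04 and 0.21. With 1 mouse left out, the ICR call held in 1 of 6 fits (without ICR ND replicate 2) and otherwise had an edgeR adjusted p of up to 0.151. The C57BL/6J call held in 3 of 6 and was lost without CDAHFD replicate 3 or ND replicate 1 or 3 (edgeR adjusted p up to 0.137).

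Apoa2, the second protein of HDL, averaged 1896 ± 289 CPM in ICR CDAHFD livers and 4369 ± 1168 CPM in ICR ND livers, and 2192 ± 232 CPM in C57BL/6J CDAHFD livers and 7400 ± 1655 CPM in C57BL/6J ND livers (SD, n = 3 each). Its log2 fold change was -1.20 ± 0.28 in ICR (edgeR adjusted p = 0.0141) and -1.75 ± 0.28 in C57BL/6J (edgeR adjusted p = 0.00103), and only the ICR call was lost with a mouse left out (ICR CDAHFD replicate 3, edgeR adjusted p = 0.0645). In ICR Apoa2 also did not pass with library size alone (-0.60, edgeR adjusted p = 0.103) or scaled to the hepatocyte markers (-0.28, edgeR adjusted p = 0.390). The C57BL/6J call held under both. Apoa5, which promotes lipolysis of triglyceride-rich particles, averaged 975 ± 145 CPM in ICR CDAHFD livers and 1475 ± 183 CPM in ICR ND livers, and 742 ± 198 CPM in C57BL/6J CDAHFD livers and 1337 ± 66.6 CPM in C57BL/6J ND livers. It fell by 0.59 ± 0.19 in ICR (edgeR adjusted p = 0.0480) and by 0.85 ± 0.23 in C57BL/6J (edgeR adjusted p = 0.0136). Scaled to the hepatocyte markers these values turned to 0.35 and 0.18. The ICR call of Apoa5 held in 1 of 6 fits with a mouse left out (without ICR ND replicate 2), the C57BL/6J call in 5 of 6 (not without CDAHFD replicate 3, edgeR adjusted p = 0.0692), and the ICR call was lost with the other filters on low counts (edgeR adjusted p = 0.0593 with none and 0.0511 with a minimum CPM).

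Apoa4, made mostly by intestine and to a lesser degree by liver and known to rise with hepatic fat in mice, went the other way. It was at 716, 263 and 268 CPM in ICR CDAHFD livers and at 221, 166 and 326 CPM in ICR ND livers. In C57BL/6J it was at 250, 412 and 412 CPM in CDAHFD livers and at 91.7, 157 and 94.0 CPM in ND livers. Apoa4 rose by 1.65 ± 0.27 in C57BL/6J, 3.15-fold (edgeR adjusted p = 0.00105), with 3 of 3 CDAHFD mice above all ND mice, and passed in all 6 fits with a mouse left out and all 9 other alternatives. In ICR the log2 fold change was 0.82 ± 0.46 (edgeR adjusted p = 0.200) with overlapping diets. Without ICR CDAHFD replicate 1, which was far above the other two CDAHFD livers of ICR, it was 0.15 (edgeR adjusted p = 0.742). The difference between the strains did not pass its own test (strain by diet term -0.84 ± 0.56, edgeR adjusted p = 0.703). Of 10 intestinal epithelium markers 3 were tested, and 2 of these rose on CDAHFD in both strains, Vil1 (a microvillus protein gene also active in bile duct cells) and Slc5a1 (a glucose transporter gene). Slc5a1 was at 12.8 to 24.7 CPM in ICR CDAHFD and 0.541 to 1.88 CPM in ICR ND, and at 6.60 to 16.1 CPM in C57BL/6J CDAHFD and 0.900 to 1.84 CPM in C57BL/6J ND, and Vil1 was at no more than 6.67 CPM in any liver. The third, Fabp2, an intestinal fatty acid-binding protein gene, was at 80.2 to 139 CPM in ICR CDAHFD and 64.3 to 161 CPM in ICR ND, and at 124 to 143 CPM in C57BL/6J CDAHFD and 94.97 to 172 CPM in C57BL/6J ND. The summed intestinal markers were 99.9 to 170 CPM in ICR CDAHFD and 66.0 to 162 CPM in ICR ND, and 147 to 155 CPM in C57BL/6J CDAHFD and 97.6 to 174 CPM in C57BL/6J ND, which overlapped between the diets. Of 10 cholangiocyte markers 8 rose in each strain, and their sum was 1469, 944 and 944 CPM in ICR CDAHFD livers, against 119, 155 and 121 CPM in ICR ND livers, and 2678, 799 and 1063 CPM in C57BL/6J CDAHFD livers, against 162, 324 and 172 CPM in C57BL/6J ND livers. ICR CDAHFD replicate 1, with the highest Apoa4 and Apoc2 of its group, was also highest in these markers, while C57BL/6J CDAHFD replicate 1, highest in them, had the lowest Apoa4 of its group. The part of intestinal or bile duct cells in the Apoa4 values was not tested.

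Apoa1, Apoc3, Apoa4 and Apoa5 lie in a run of 43340 bases at chr9:46228580-46271919 (GRCm38), with Apoc3 on the minus strand and the others on the plus strand. Of these neighbours 3 fell in both strains while Apoa4 rose in C57BL/6J. There were 14.0, 5.69 and 4.83 Apoa4 counts per 100 Apoa1 counts in ICR CDAHFD livers, against 1.81, 2.37 and 2.99 in ICR ND livers. In C57BL/6J there were 4.32, 5.90 and 6.90 in CDAHFD livers, against 0.784, 1.498 and 0.815 in ND livers. The ratio was 3.41-fold higher on CDAHFD in ICR and 5.53-fold higher in C57BL/6J, with no overlap between the diets in either strain (two-sided exact permutation p = 0.1 in each, adjusted p = 0.125). Without ICR CDAHFD replicate 1 the ICR ratio was 2.201-fold higher. Apoc3 per 100 Apoa1 moved down, to 7.12 ± 0.91 in ICR CDAHFD livers, against 10.2 ± 2.28 in ICR ND livers, and to 8.88 ± 1.63 in C57BL/6J CDAHFD livers, against 17.9 ± 2.06 in C57BL/6J ND livers, again without overlap (the same exact p). Apoa5 per 100 Apoa1 overlapped between the diets in both strains. The principal transcripts are of 526 bases for Apoc3, 1035 for Apoa1, 1815 for Apoa4 and 2515 for Apoa5. The part of transcript length in these ratios was not tested. Genes annotated antisense to Apoa4 and Apoa5 exist, and no source used here gives the strand setting of the counting, so reads from them cannot be told apart.

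**Figure D3:**
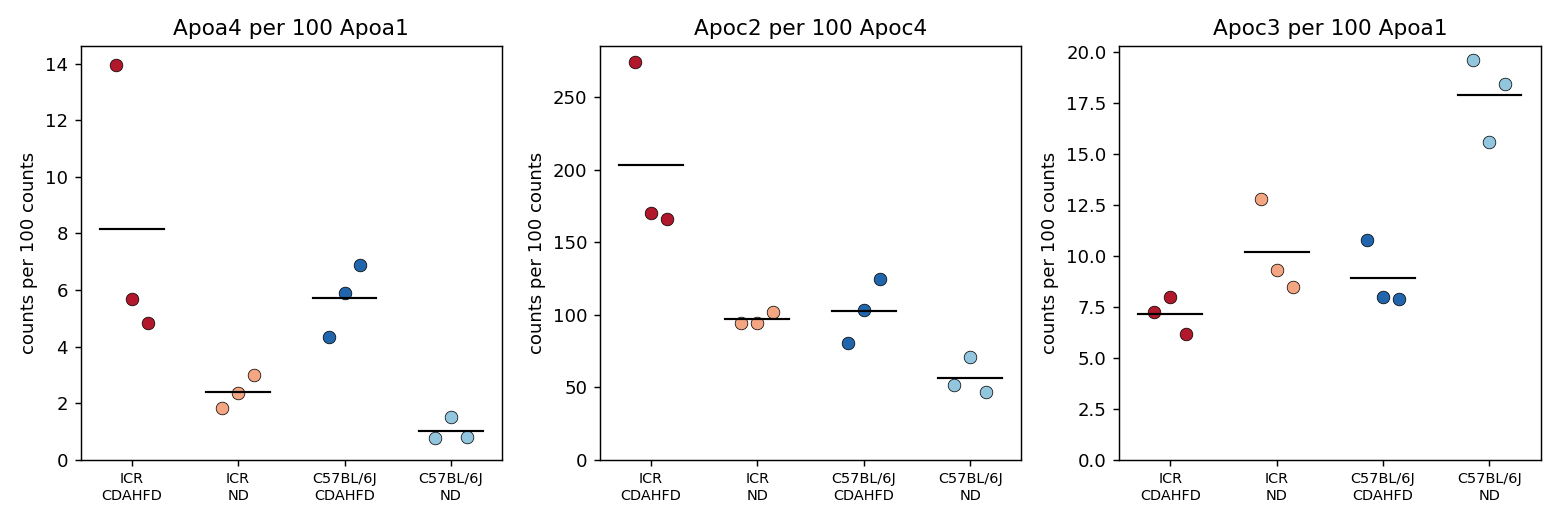
Counts of a gene per 100 counts of a neighbouring gene in the same liver, on linear axes from 0. Each point is 1 mouse and each bar the mean of 3. Apoa4 per 100 Apoa1 and Apoc2 per 100 Apoc4 are higher, and Apoc3 per 100 Apoa1 lower, in all CDAHFD livers than in all ND livers of the same strain. The ratios are not corrected for transcript length.

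The windows before Apoa1 and Apoa4 are shown as the pair of neighbours with opposite changes in C57BL/6J. They are RefSeq bases of GRCm38.p6 on the plus strand at chr9:46228380-46228579 and chr9:46240594-46240695, and end before the GENCODE gene. Neither holds an exact match to any of the 5 motifs searched, so no letters are in capitals. The Apoa4 window holds CAAAGTTCA, which is close to CAAAGTCCA and was seen by eye. Near matches and other forms of the site were searched in neither window, so the pair cannot be compared for them.
Apoa1: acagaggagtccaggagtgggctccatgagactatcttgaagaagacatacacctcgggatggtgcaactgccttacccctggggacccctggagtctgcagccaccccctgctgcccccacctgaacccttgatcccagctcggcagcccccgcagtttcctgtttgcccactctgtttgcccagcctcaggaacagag
Apoa4: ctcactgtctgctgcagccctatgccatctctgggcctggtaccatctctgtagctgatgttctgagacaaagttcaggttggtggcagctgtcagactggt

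Apob, the structural protein of VLDL, did not pass the test in either strain. It was at 6358, 6598 and 7112 CPM in ICR CDAHFD livers and at 7055, 10943 and 12243 CPM in ICR ND livers, which overlapped. In C57BL/6J it was at 2675, 5193 and 4768 CPM in CDAHFD livers and at 5236, 7112 and 5505 CPM in ND livers, which came close but did not overlap. The log2 fold change was -0.58 ± 0.28 in ICR (edgeR adjusted p = 0.145) and -0.50 ± 0.32 in C57BL/6J (edgeR adjusted p = 0.237), and was positive in both strains with library size or hepatocyte scaling. DESeq2 called the ICR difference (adjusted p = 0.0277), as did edgeR without ICR ND replicate 1 (-0.77, adjusted p = 0.0263).

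Apoe, which mediates particle uptake, had high levels in every liver. It was at 8809, 9104 and 9277 CPM in ICR CDAHFD livers and at 15394, 10089 and 12192 CPM in ICR ND livers. Apoe was at 7107, 10757 and 9340 CPM in C57BL/6J CDAHFD livers and at 17824, 15216 and 18109 CPM in C57BL/6J ND livers. The log2 fold change was -0.47 ± 0.28 in ICR, which did not pass (edgeR adjusted p = 0.224). Apoe fell by 0.91 ± 0.32 in C57BL/6J (edgeR adjusted p = 0.0421), but that call held in 2 of 6 fits with a mouse left out and was lost without CDAHFD replicate 1 or 3 or ND replicate 1 or 3 (edgeR adjusted p = 0.05002 to 0.150), and the sign was positive in both strains when scaled to the hepatocyte markers. Macrophages also express Apoe, and 9 of 19 macrophage and Kupffer cell markers rose on CDAHFD in ICR with 0 lower, and 13 of 19 rose in C57BL/6J with 1 lower. Their summed level was 3740 to 6608 CPM in ICR CDAHFD and 749 to 1647 CPM in ICR ND, and 4325 to 5626 CPM in C57BL/6J CDAHFD and 753 to 1267 CPM in C57BL/6J ND, and their part in the Apoe values was not tested. Trem2, a marker of lipid-associated macrophages, was at 26.9 to 63.1 CPM in ICR CDAHFD and 0.450 to 1.72 CPM in ICR ND, and at 52.8 to 75.1 CPM in C57BL/6J CDAHFD and 1.06 to 1.38 CPM in C57BL/6J ND. Clec4f, another of these markers, had lower means on CDAHFD, with overlap. It averaged 92.7 CPM in ICR CDAHFD against 146 in ICR ND, and 96.1 in C57BL/6J CDAHFD against 141 in C57BL/6J ND. Adgre1, listed as Emr1, overlapped in ICR (35.1 to 67.7 CPM on CDAHFD, 6.88 to 38.8 on ND). In C57BL/6J it was at 23.6 to 50.7 CPM on CDAHFD and 8.96 to 12.5 on ND. Apoc1, the neighbour of Apoe, stood at 11.9 ± 1.42 counts per 100 Apoe counts in ICR CDAHFD livers and 20.2 ± 2.00 in ICR ND livers, and at 16.3 ± 5.59 in C57BL/6J CDAHFD livers and 30.3 ± 5.57 in C57BL/6J ND livers (SD, n = 3 each), without overlap between the diets (two-sided exact permutation p = 0.1 in each, adjusted p = 0.125). This ratio is not corrected for transcript length either, with 532 bases for Apoc1 and 1408 for Apoe.

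In ICR 7 of the 10 genes had diets that did not overlap in CPM, against 53.4% of all genes tested, and in C57BL/6J 10 of 10, against 58.4%. As shares of the summed FPKM of the 10 genes, which are free of scaling, Apoa4 took 2.07 ± 1.24% in ICR CDAHFD livers and 0.633 ± 0.209% in ICR ND livers, and 1.61 ± 0.433% in C57BL/6J CDAHFD livers and 0.213 ± 0.111% in C57BL/6J ND livers. Apoe took 27.9 ± 1.46% in ICR CDAHFD and 20.7 ± 1.13% in ICR ND, and 24.8 ± 3.82% in C57BL/6J CDAHFD and 19.1 ± 1.55% in C57BL/6J ND (SD, n = 3 each). The shares rest on the gene lengths that the FPKM values imply, which for Apoa4 and Apoe differ from those of GENCODE. They are not corrected for a trend with transcript length.

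The second comparison set ICR against C57BL/6J on the same diet. The paper drew its heatmap after correction for a batch effect, without naming the batches, and the main fits here held no batch term. A block for the replicate number was fitted only as an alternative. A batch that follows strain cannot be told apart from strain. On CDAHFD 0 of the 10 genes passed by edgeR, while 15.6% of 13901 genes tested did, 8.13% higher and 7.5% lower in ICR. At an unadjusted p under 0.05 there were 3 (Apoc3, Apoc4 and Apob), and DESeq2 called 1 (Apoc4, adjusted p = 0.0300). Of all genes DESeq2 called 1536 higher and 1626 lower in ICR on CDAHFD. Apoc4 had a log2 difference of -0.62 ± 0.21 (edgeR adjusted p = 0.0682), Apoc3 -0.61 ± 0.27 (edgeR adjusted p = 0.144) and Apob 0.67 ± 0.30 (edgeR adjusted p = 0.153). On ND 3 of the 10 were lower in ICR and 0 higher by edgeR, against 10.1% lower and 11.3% higher, 21.5% in all, of the same genes. These were Apoc1 at -1.02 ± 0.27 (edgeR adjusted p = 0.0204), Apoc3 at -0.95 ± 0.27 (edgeR adjusted p = 0.0302) and Apoc4 at -0.91 ± 0.21 (edgeR adjusted p = 0.0135). Without C57BL/6J ND replicate 1 or 3 or ICR ND replicate 2 or 3 the calls of Apoc1 and Apoc3 were lost (edgeR adjusted p = 0.0683 to 0.107), and that of Apoc4 without C57BL/6J ND replicate 1 (0.0540) or 3 (0.0564). At an unadjusted p under 0.05 there were 6 in either direction, with Apoa2 lower and Apoa4 and Apob higher in ICR, and DESeq2 called all 6, of which 2 were higher. Of all genes DESeq2 called 1883 higher and 1928 lower in ICR on ND. The share of all genes at an unadjusted p under 0.05 alone was not counted. Apoa4 on ND was at 166 to 326 CPM in ICR and 91.7 to 157 CPM in C57BL/6J, a log2 difference of 1.06 ± 0.40 that did not pass by edgeR (adjusted p = 0.0797).

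Between the strains 5 of the 10 did not overlap in CPM on CDAHFD (1 above and 4 below in ICR), against 44.5% of all genes, and 5 on ND (1 above and 4 below), against 35.4%. By the rule of p under 0.05 with a fold of at least 2, 0 of the 10 passed on CDAHFD (9.84% of all genes), 2 on ND (11.7%), with Apoc1 lower and Apoa4 higher in ICR, while none did for the interaction of strain with diet (5.25%).

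Transcript length moved with the strain differences across all genes. On ND the median log2 difference, ICR over C57BL/6J, was -0.58 over 404 genes with principal transcripts of up to 800 bases and 0.22 over 1515 genes of more than 6000 and up to 12000 bases. On CDAHFD the same medians were -0.40 and 0.11. The 4 shortest members, Apoa2 (518 bases), Apoc3 (526 bases), Apoc1 (532 bases) and Apoc4 (538 bases), were the 4 with the lowest ICR values on ND, and the longest, Apob (13934 bases), was the highest but for Apoa4. With a correction for transcript length within each library, added after the data were seen, 0 of the 10 were lower in ICR on ND, with Apoc1 at -0.54 (edgeR adjusted p = 0.118), Apoc3 at -0.48 (edgeR adjusted p = 0.158) and Apoc4 at -0.42 (edgeR adjusted p = 0.107). Of all 13901 genes tested, 1115 were then higher and 1029 lower in ICR on ND. A length trend was also present between mice of 1 group. In ICR ND replicate 1 the genes of up to 800 bases had a median deviation from the group mean of 0.23 (log2 CPM) and those over 6000 bases of -0.14, with Apoc3 at 0.67, Apoc1 at 0.47 and Apob at -0.48, while in ICR ND replicate 2 the medians were -0.16 and 0.13, with Apoc3 at -0.59, Apoc1 at -0.36 and Apob at 0.16. Its part in the strain differences was not tested beyond the correction. The diet comparisons held a trend as well. In ICR the median log2 fold change was -0.26 over 368 genes of up to 800 bases and 0.01 over 1479 genes of more than 6000 and up to 12000 bases, and in C57BL/6J it was -0.40 over 379 and 0.15 over 1487 such genes. With the correction 5 of the 10 fell in ICR and 5 fell and 1 rose in C57BL/6J, and Apoc1, Apoc3, Apoc4, Apoa2 and Apoa5 passed in both strains. Of 13319 genes tested in ICR, 2438 fell and 2752 rose with it, and of 13402 in C57BL/6J, 2808 fell and 3434 rose.

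**Figure D4:**
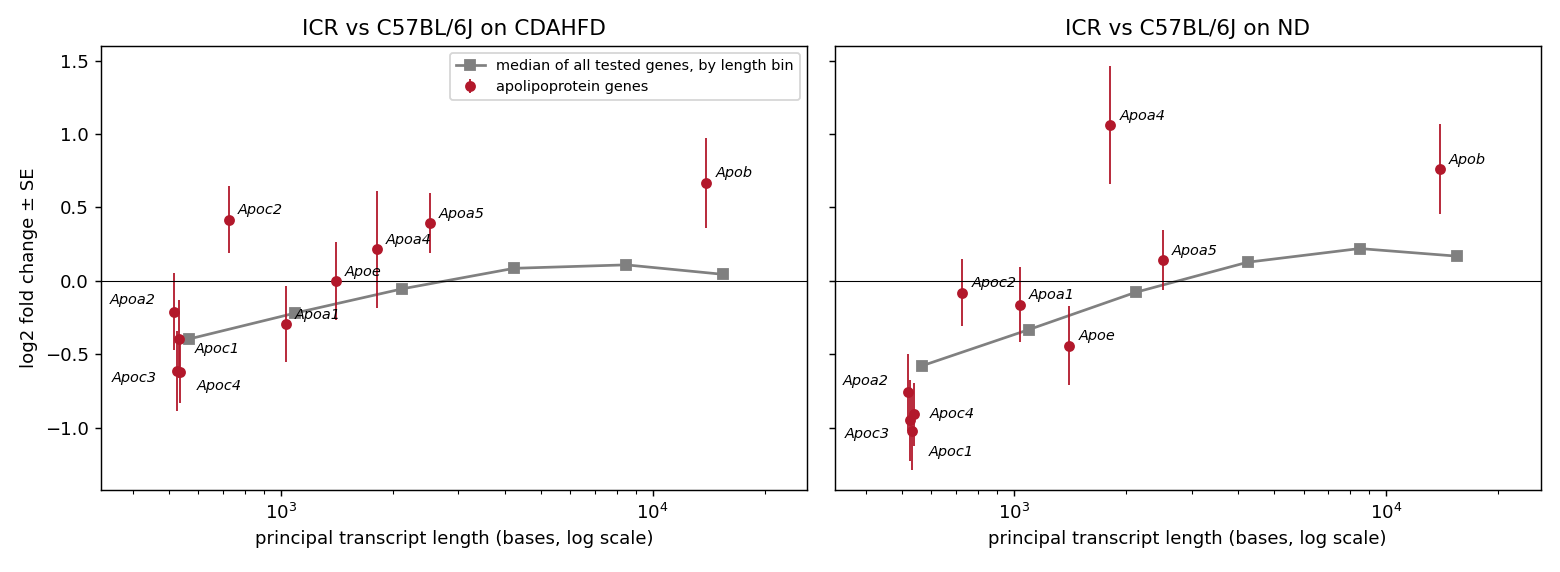
Log2 difference of ICR over C57BL/6J on CDAHFD (left) and ND (right) against the length of the principal transcript, on a log axis. Red points are the 10 genes with standard errors, and grey squares are medians of all genes tested in 6 bins of length. Apoa2, Apoc1, Apoc3 and Apoc4, at 518 to 538 bases, lie together at the low end on ND, beside a median of -0.58 for all genes of up to 800 bases.

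The third comparison asked whether the diet acted differently in the strains. None of the 10 genes passed for the strain by diet term, 0 at an unadjusted p under 0.05 and 0 by DESeq2, while 0.18% of 13901 genes did by edgeR, 0.122% with a positive and 0.0575% with a negative term. The terms ran from -0.84 ± 0.56 for Apoa4 to 0.63 ± 0.37 for Apoc1 (edgeR adjusted p = 0.656). The standard errors of 0.29 to 0.56 leave room for differences of about the size of these terms.

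Across the 12 libraries, Apoa1, Apoa2, Apoc1, Apoc3, Apoc4 and Apoe varied together, with Pearson r of log2 CPM of 0.85 to 0.99 over their 15 pairs, and of 0.38 to 0.96 for deviations from the group means. The points share their library and its scaling. The genes outside the 10 with the patterns most like theirs, among 9777 with a mean of at least 5 CPM, were Ndufs7 and Acad8 for Apoc1 (r = 0.996 and 0.994), Sod1 and Ndufs7 for Apoc3 (r = 0.99 each), Ndufa6 and Mpc2 for Apoc4 (r = 0.99 each), and Ndufb11 and 0610011F06Rik for Apoa2 (r = 0.99 each). For Apoa1 they were Hibch and Bphl (r = 0.98 each), for Apoe Atp5f1 (r = 0.98), for Apoa5 Abcb11 and Copz1 (r = 0.96 each) and for Apob Agpat3 and Rxra (r = 0.99 and 0.98). Apoa4 was most like Acad12 and Mcm7 (r = 0.90 and 0.89). Apoc2 had the weakest match, to Tsc22d1 and Adam11 (r = 0.77 and 0.74).

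Genes that build and secrete VLDL fell with them or did not pass. Of 24 tested in ICR, 12 fell and 0 rose, with a list median of -0.43, and of 23 tested in C57BL/6J, 14 fell and 0 rose, with a median of -0.66. Of all genes tested 16.5% fell and 20.1% rose in ICR, and 21.2% fell and 26% rose in C57BL/6J, which are the shares to set beside the counts of this list and the next ones. Those with the smallest p were Ces1d, a lipase of the endoplasmic reticulum that supplies lipid to VLDL (-2.58 ± 0.51 in ICR and -2.13 ± 0.26 in C57BL/6J), Smlr1 (-1.11 ± 0.31 and -1.18 ± 0.14) and Sar1b, the small GTPase of vesicles that leave the endoplasmic reticulum (-0.94 ± 0.14 and -1.13 ± 0.15). Mttp, which loads lipid onto apolipoprotein B, also fell in both strains, to 270 to 292 CPM in ICR CDAHFD livers, against 418 to 620 CPM in ICR ND livers, and to 161 to 230 CPM in C57BL/6J CDAHFD livers, against 394 to 474 CPM in C57BL/6J ND livers.

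Among 14 other apolipoproteins and genes of Apob mRNA editing, 10 fell and 1 rose in ICR, and 8 fell and 1 rose in C57BL/6J, with medians of -1.14 and -0.94. The gene that rose in both strains was Apobec1, the enzyme that edits Apob mRNA in mouse liver. It was at 158, 206 and 230 CPM in ICR CDAHFD livers and at 48.2, 81.4 and 58.0 CPM in ICR ND livers, and at 110, 109 and 117 CPM in C57BL/6J CDAHFD livers and at 44.1, 43.5 and 41.7 CPM in C57BL/6J ND livers. The diets did not overlap in either strain. The log2 fold change was 1.67 ± 0.22 in ICR (edgeR adjusted p = 0.00185) and 1.38 ± 0.11 in C57BL/6J (edgeR adjusted p = 2.39e-05). A1cf, the partner of Apobec1, fell in both. Apon and Saa4, a serum amyloid A gene of HDL, had fold changes of -1.77 ± 0.17 and -1.98 ± 0.48 in ICR and -1.61 ± 0.27 and -2.12 ± 0.36 in C57BL/6J.

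In ICR the calls of Smlr1 and Saa4 were lost without CDAHFD replicate 1 or 2, and that of Saa4 also without CDAHFD replicate 3 (edgeR adjusted p = 0.0527 to 0.0931).

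Lipoprotein receptors were mixed. Of 14 genes, 4 rose and 1 fell in ICR, and 5 rose and 3 fell in C57BL/6J. Cd36, a scavenger receptor and fatty acid transporter, rose to 268, 532 and 645 CPM in ICR CDAHFD livers, against 12.4, 15.2 and 12.3 CPM in ICR ND livers, and to 325, 564 and 567 CPM in C57BL/6J CDAHFD livers, against 88.9, 36.2 and 81.9 CPM in C57BL/6J ND livers. Cd36 was lower in ICR than in C57BL/6J on ND (-2.37 ± 0.39, edgeR adjusted p = 0.00272). Apobr, a receptor for apolipoprotein B48 known from macrophages, rose by 1.97 ± 0.43 in ICR and 2.10 ± 0.20 in C57BL/6J.

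Of the genes that remodel particles in plasma, 15 were tested in ICR, where 4 rose and 6 fell, and 14 in C57BL/6J, where 2 rose and 9 fell. Lpl, lipoprotein lipase, rose to 115, 135 and 160 CPM in ICR CDAHFD livers, against 34.5, 10.5 and 12.7 CPM in ICR ND livers, and to 327, 199 and 196 CPM in C57BL/6J CDAHFD livers, against 16.3, 15.5 and 20.3 CPM in C57BL/6J ND livers. Its activator Apoc2 and its inhibitor Apoc3 are described above. Lpl is also in the list of macrophage and Kupffer cell markers, and the part of those cells in its rise was not tested. Abcg1, a cholesterol exporter, rose by 2.00 ± 0.45 in ICR (edgeR adjusted p = 0.0605 without ND replicate 3) and 2.10 ± 0.22 in C57BL/6J, and Lipc, hepatic lipase, fell by 1.39 ± 0.23 in ICR and by 1.29 ± 0.14 in C57BL/6J.

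Of 33 transcriptional regulators of apolipoprotein genes, 12 fell and 1 rose in ICR (list median -0.47), and 17 fell and 2 rose in C57BL/6J (list median -0.63), against 16.5% lower and 20.1% higher of all genes in ICR and 21.2% lower and 26% higher in C57BL/6J. Those with the smallest p were Nr1h4, the bile acid receptor FXR (-0.97 ± 0.10 in ICR and -1.03 ± 0.17 in C57BL/6J), Thrb, a thyroid hormone receptor (-1.14 ± 0.11 and -0.65 ± 0.15), and Nr0b2, a repressor that FXR induces, which fell by 2.17 ± 0.30 in C57BL/6J and had a value of 0.01 ± 0.58 in ICR, with a strain by diet term that did not pass (2.19 ± 0.71, edgeR adjusted p = 0.294). Hnf4a, a hepatocyte nuclear receptor, also fell, to 503, 680 and 670 CPM in ICR CDAHFD livers, against 753, 1541 and 1332 CPM in ICR ND livers, and to 334, 485 and 418 CPM in C57BL/6J CDAHFD livers, against 753, 823 and 785 CPM in C57BL/6J ND livers. Creb3l3, which in mice drives Apoa4 among other genes, fell to 294 to 312 CPM in ICR CDAHFD livers, against 349 to 560 CPM in ICR ND livers, and to 182 to 231 CPM in C57BL/6J CDAHFD livers, against 440 to 464 CPM in C57BL/6J ND livers. Only its mRNA was measured, and its part in the Apoa4 values was not tested. In ICR the calls of Hnf4a and Creb3l3 were lost without any 1 of the 3 CDAHFD mice or without ND replicate 2 or 3 (edgeR adjusted p = 0.0591 to 0.108). Scaled to the hepatocyte markers, Smlr1, Sar1b, Mttp, A1cf, Lipc, Nr1h4, Thrb, Hnf4a and Creb3l3 passed in neither strain, and the values of Sar1b, Mttp, A1cf, Nr1h4, Thrb, Hnf4a and Creb3l3 turned positive in 1 strain or both. Mttp, A1cf, Hnf4a and Creb3l3 are named for their roles and outside the rule for named genes, with their values already seen.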

How the data were processed

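Liver RNA of 12 mice was sequenced. Counts per gene are unnormalized as deposited; the authors trimmed reads with fastp 0.23.4, aligned them with HISAT2 2.2.1 and counted them with featureCounts 2.0.6. The submitters' notes name build mm39, the methods mm10, and no source used here gives the annotation or the strand setting. The labels describe mRNA purification and the methods rRNA depletion. FPKM values were used as deposited by the authors, for levels only, and 12 CPM columns were not used. Of 17713 lines, 3 repeats were dropped.

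Counts were tested with edgeR 4.0.16 in R 4.3.3 (filterByExpr with a count minimum of 10 and total minimum of 15, TMM, quasi-likelihood F test). Diet comparisons were fitted within a strain on 6 libraries, and strain comparisons and the strain by diet term on all 12, which therefore share libraries. P values were adjusted by Benjamini-Hochberg over all genes tested at 0.05, and standard errors come from the test statistic. The script was tested on simulated data. The mice within a group are taken as separate animals. Alternatives were DESeq2 1.42.0, other scalings, filters, fits, a replicate block, a fold threshold of 2 with p under 0.05, leaving out each mouse, and, added after the data were seen, an offset per library from a spline of log2 CPM on GENCODE transcript length (98.3% of 13901 genes had a length). Gene positions are from GENCODE on GRCm38, and similar transcripts were sought with BLAST 2.17.0. Same-numbered replicates did not deviate together in any comparison by the rule that every pair exceed r = 0.1. Under this rule a single low pair is enough, and some pairs were above it. The paper's heatmap was drawn after correction for a batch effect that it does not describe. The main fits held no batch term.

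The 10 members, the 5 pathway lists and the marker lists were chosen with earlier results of these data known. Named genes were all 10 members, the 3 genes of each pathway list with the smallest p in either diet comparison, any with an adjusted p under 0.05 for the strain by diet term, the defining markers, and the 2 genes most like each member; some genes that the rule names are not reported here. Of 214 list entries 206 were found, and the other genes, such as Ppargc1a, were not analysed here.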

Additional observations from a re-analysis of the deposited data

Results flagged for a closer look

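Angptl8, listed under the older name Gm6484, encodes an inhibitor of lipoprotein lipase and was the gene of the 5 pathway lists whose diet effect differed between the strains by test. The strain by diet term was 3.83 (edgeR adjusted p = 0.0396). It was at 42.6, 39.1 and 62.1 CPM in ICR CDAHFD livers and at 12.04, 7.83 and 11.8 CPM in ICR ND livers, and at 9.75, 19.6 and 17.3 CPM in C57BL/6J CDAHFD livers and at 48.3, 19.4 and 78.4 CPM in C57BL/6J ND livers. It rose by 2.18 in ICR (edgeR adjusted p = 0.0013) and fell by 1.65 in C57BL/6J (edgeR adjusted p = 0.0132), where the diets overlapped by 1 mouse each. The term was positive in all 12 fits with a mouse left out, but it passed in 3 of them and had an edgeR adjusted p of up to 0.13 in the other 9. The C57BL/6J call was lost without ND replicate 3 (edgeR adjusted p = 0.0556) and with library size alone (-1.05, edgeR adjusted p = 0.0617). The cause was not tested.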

How the results depend on the processing

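Most calls on single members kept their side of the threshold under size factors of the DESeq2 type, both other filters on low counts and the single fit of all 12 libraries. Scaling moved the diet results most. With library size alone 1 member rose and 1 fell in ICR, and 3 fell in C57BL/6J, and 6994 and 7568 of all genes rose while 614 and 717 fell, against 2679 and 3486 higher and 2204 and 2839 lower with TMM. The log2 fold change then turned to 0.0162 for Apoa5, 0.0365 for Apob and 0.13 for Apoe in ICR, and to 0.14 for Apob and 0.30 for Apoc2 in C57BL/6J. Relative to the hepatocyte markers 2 members rose and 0 fell in ICR, and 2 rose and 3 fell in C57BL/6J, with 9525 and 9236 genes higher and 341 and 281 lower. Apoa5, Apob and Apoe were then at 0.35, 0.37 and 0.46 in ICR, and Apoa1, Apoa5, Apob, Apoc2 and Apoe at 0.21, 0.18, 0.53, 0.72 and 0.11 in C57BL/6J. Between strains that scaling gave -0.0447 for Apoa4 on CDAHFD and -0.0765 for Apoa5 on ND, and 258 genes higher on CDAHFD, and 361 higher and 628 lower on ND. Of the other genes named, that scaling turned A1cf, Nr1h4, Thrb and Hnf4a to 0.21, 0.0193, 0.39 and 0.11 in C57BL/6J, and Sar1b, Mttp, A1cf and Creb3l3 to 0.00585, 0.0714, 0.10 and 0.31 in ICR. These shifts are part of the scaling itself.

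With the length correction Apoc2 turned to 0.0671 in the C57BL/6J diet comparison. Between strains on CDAHFD Apoa2 and Apoe turned to 0.19 and 0.14 and 1 member was higher in ICR (Apoc2, 0.71, edgeR adjusted p = 0.0466), and on ND Apoa1 and Apoc2 turned to 0.15 and 0.34 and 0 members were lower. Of all genes, 994 were then higher and 948 lower in ICR on CDAHFD, and 1115 higher and 1029 lower on ND. DESeq2 called 1 member lower on CDAHFD, with 1626 genes lower against 1042. It called 2 members higher on ND, with 1883 genes higher against 1574. Fitted on the 6 libraries of a diet alone, 2 members were lower on CDAHFD (Apoc3 and Apoc4) and 1 on ND, where 766 genes were higher and 709 lower, against 1574 and 1408. With p under 0.05 and a fold of at least 2, 3 members fell in ICR and 4 in C57BL/6J, among 1021 and 1057 genes lower, and on ND 1 member was higher and 1 lower in ICR, among 846 and 774 genes, while 629 genes were higher on CDAHFD against 1130. Apoe on CDAHFD, at 0.00 between the strains, changed sign without the filter (0.0048). For the strain by diet term the genes higher and lower, 17 and 8, were 123 and 118 by DESeq2, 10 and 4 with library size, 332 and 398 by the fold rule and 9 and 3 with the replicate block, with 8 higher under hepatocyte scaling and 16 lower without the filter. By counts per kilobase on TMM-scaled CPM, 2 members changed place in the order of levels (Apoa1 and Apoa2 in ICR ND), and by GENCODE lengths 17 of 40 places changed.

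Leaving out each mouse gave 3 to 6 members lower in ICR, fewest without ICR CDAHFD replicate 2 or 3, and 4 to 7 lower in C57BL/6J, fewest without C57BL/6J CDAHFD replicate 3. Genes lower in ICR numbered 1230 to 2524. Between strains 0 to 2 members were lower on CDAHFD, among 387 to 1490 genes higher and 373 to 1378 lower, and on ND 0 to 4 were lower and 0 to 1 higher, among 619 to 2277 genes higher and 590 to 1957 lower. The strain by diet term was passed by 4 to 57 genes higher and 2 to 79 lower. The sign turned for Apoc2 (-0.21 to 0.33) and Nr0b2 (-0.48 to 0.63) on diet in ICR, for Apoa4 (-0.43 to 0.46) and Apoe (-0.19 to 0.0915) between strains on CDAHFD, for Apoa1 (-0.33 to 0.0401) and Apoc2 (-0.24 to 0.0894) on ND, and for Apob (-0.37 to 0.0733) and Apoa1 (-0.33 to 0.0361) in the strain by diet term, and the ratio of Apoa5 to Apoa1 in C57BL/6J was 0.893 to 1.04 times that on ND. None of these had passed the test.

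With the replicate number as a block, Apoa1 (edgeR adjusted p = 0.0550) and Apoe (0.0610) in C57BL/6J and Apoa1 in ICR (0.0516) no longer passed, Apoc4 on CDAHFD (0.0217) and Apoa2 on ND (0.0375) did, and 1 member was lower in ICR on CDAHFD. Among all genes the block gave 1544 higher and 1390 lower in ICR on CDAHFD, against 1130 and 1042 without it. On diet in ICR it gave 2496 higher and 1910 lower, against 2679 and 2204. By the rule that every same-number correlation exceed 0.1, the numbers did not pair the samples in any comparison. Not every sample correlated best with its own number. Between the strains on CDAHFD, same-number r was 0.401, 0.314 and 0.0927, against -0.403 to 0.206 for other numbers. A batch shared by replicate number was not tested otherwise.

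With 3 mice a group, exact tests of single ratios could not pass 0.05. The causes of the other changes were not tested.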
